A study of Rattus norvegicus with 58 samples.

Results

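The genes described here were 40 enzymes of drug and steroid metabolism among 14217 genes measured in rat liver: cytochrome P450 genes of the Cyp1, Cyp2 and Cyp3 families, cytosolic sulfotransferases of the Sult1 and Sult2 families, and flavin-containing monooxygenases (Fmo). They were taken by symbol from the array annotation, where a probe set carried a single symbol, and Cyp2c genes were left out of the set. The set held 3 Cyp1, 18 Cyp2, 4 Cyp3, 7 Sult1, 4 Sult2 and 4 Fmo genes, and each gene was read by its probe set of highest mean. Of these genes, 5 had more than 1 probe set: Cyp2d4, Cyp2j3, Fmo2, Fmo4 and Sult2b1. A further 4 probe sets carried several symbols and were left out: Cyp2a2 with Cyp2a1, Cyp2d5 with Cyp2d1, Cyp2b2 with Cyp2b1, and Sult1c2 with RGD1562392.

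Liver RNA of 58 male rats was measured on Affymetrix expression arrays with 1 array per rat. Rats of the heterogeneous stock (HS), which is outbred from inbred founder strains, gave 46 arrays: 23 from glucose-normal and 23 from glucose-intolerant rats. A further 12 arrays came from inbred rats, with 2 each from WKY, M520, F344, BUF, BN and ACI. Every rat was 17 weeks old, was housed 2 to a cage and had fasted overnight before the liver was taken, per the labels, which name no drug or other agent for any group. The labels do not say whether arrays of a group came from separate litters, so a p-value measures the spread between these arrays. The 2 arrays of a strain are the whole sample of that strain.

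P450 enzymes insert oxygen into lipophilic compounds with electrons delivered by P450 reductase, and Fmo enzymes oxygenate nitrogen and sulfur atoms. Sulfotransferases then attach a sulfate group, donated by PAPS, to hydroxyl groups of drugs, phenols, oestrogens and hydroxysteroids. In liver, the receptors AhR, CAR and PXR induce many of these genes, and in rats the pattern of growth hormone release makes several of them higher in one sex: Cyp2a2, Cyp3a2, Cyp3a18 and Sult1e1 are known as male-predominant, and Cyp2a1, Cyp3a9 and the Sult2a genes as female-predominant.

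The upstream sequences of the Cyp3a and Sult2a genes are shown first, because Cyp3a2, Cyp3a18, Sult2a2 and Sult2a6 had some of the widest ranges of the set among the HS rats. For Cyp3a2 and Sult2a2 that width came from 1 rat: without glucose-intolerant rat 42 their ranges were 0.84 and 2.04 in place of 3.79 and 4.29. They come from the RefSeq annotation of the GRCr8 assembly, which holds the sequence of a BN rat and not of the other strains. A window upstream of the start site was found for 36 of the 40 genes. The 4 Cyp3a stretches below run from 180 to 81 bases upstream of the start, 5′ to 3′ on the coding strand. Capitals mark AGGTCA and AGTTCA, the hexamers that nuclear receptors such as PXR and CAR can bind, and the reverse complement of the latter, TGAACT.
Cyp3a2 (chr12:14343938-14344037, minus strand): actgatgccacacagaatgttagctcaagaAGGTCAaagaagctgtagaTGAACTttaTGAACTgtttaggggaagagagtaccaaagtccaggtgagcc
Cyp3a23-3a1 (chr12:14398884-14398983, minus strand): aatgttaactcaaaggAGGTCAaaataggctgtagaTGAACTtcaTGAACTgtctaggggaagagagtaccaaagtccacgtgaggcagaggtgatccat
Cyp3a18 (chr12:13994132-13994231, plus strand): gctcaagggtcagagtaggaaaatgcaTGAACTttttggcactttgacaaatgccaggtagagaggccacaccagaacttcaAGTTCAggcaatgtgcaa
Cyp3a9 (chr12:21960241-21960340, minus strand): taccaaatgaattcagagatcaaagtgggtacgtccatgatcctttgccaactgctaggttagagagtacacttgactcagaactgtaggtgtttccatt
Cyp3a2 and Cyp3a23-3a1 shared an AGGTCA followed by a pair of TGAACT hexamers, and 79.2% of aligned positions in their 250 upstream bases were identical. Cyp3a18 held 2 AGTTCA hexamers in opposite orientation, and its upstream bases were 56.2% identical to those of Cyp3a2. Cyp3a9 had no match in the stretch shown, though an AGTTCA lay nearer its start, and was 53.4% identical to Cyp3a2.

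The Sult2a6 and Sult2a2 stretches below cover the 100 bases just upstream of the start on the minus strand, with TATAAA in capitals, a core promoter motif.
Sult2a6 (chr1:84097809-84097908): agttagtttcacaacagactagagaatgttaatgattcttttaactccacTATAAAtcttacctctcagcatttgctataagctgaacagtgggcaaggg
Sult2a2 (chr1:85104533-85104632): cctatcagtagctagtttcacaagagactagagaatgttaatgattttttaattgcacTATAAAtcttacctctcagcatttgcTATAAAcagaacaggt
Over 250 upstream bases Sult2a6 and Sult2a2 were 83.3% identical, and Sult2a6 and Sult2a1 were 98.0% identical. The start site used for Sult2a1 lies inside the annotated limits of that gene, so part of its window is not upstream of the gene. Probe sequences were not analysed here, so whether a probe set of 1 of these genes also reads a close relative cannot be told. Over both strands of 250 upstream bases, AGTTCA occurred in 12 of 36 genes of the set, or 33.3%, against 12.1% of 27457 RefSeq promoters. AGGTCA occurred in 10 of 36, or 27.8%, against 13.7%, and TATAAA in 10 of 36, or 27.8%, against 13.1%. GCGTG, the core to which the dioxin receptor AhR binds, occurred in 5 of 36, or 13.9%, against 27.2%. The longer HNF1 palindrome occurred in 0 of 36 genes and in 0.00364% of promoters. These are counts of letters in a window and not of bound sites.

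Expression values are log2 units, in which 1 unit is a 2-fold difference, and no probe's level can be set against that of another. The 31042 probe sets ran from 1.86 to 15, and array medians lay between 5.33 and 5.39. The 2 arrays of a strain correlated over all probe sets at 0.989 in BUF to 0.997 in ACI. Hepatocyte markers had a mean level between 13.5 and 13.8 on all 58 arrays. Of the 40 genes, 27 had a mean above that of the median gene, 6.60. The 13 at or below it were Cyp1a1, Cyp1b1, Cyp2a3, Cyp2b12, Cyp2b21, Cyp2g1, Cyp2j10, Cyp2s1, Fmo2, Sult1d1, Sult2a1, Sult2a2 and Sult2b1, several of which are known mainly from lung, nasal tissue or skin.

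Across the 6 inbred strains, 17 of the 40 genes differed (limma moderated F test, adjusted p under 0.05 over all probe sets), or 42.5%, where 13.8% of all 14217 genes did. Among genes above the median level the count was 16 of 27, or 59.3%, against 18.6%. By family, the F test called 9 of 18 Cyp2, 3 of 4 Cyp3, 2 of 4 Fmo, 2 of 4 Sult2, 1 of 7 Sult1 and 0 of 3 Cyp1 genes. The median range of strain means was 0.73 over the set and 0.44 over all genes. Of the 17, 10 passed in each of the 12 fits that left out 1 array: Cyp2a1, Cyp2a2, Cyp2d3, Cyp2j4, Cyp2u1, Cyp3a9, Fmo1, Fmo5, Sult2a6 and Sult2b1. Cyp3a2 and Cyp3a18 were lost in 9 of the 12 fits and Sult1e1 in 7. Liver is bulk tissue, so fewer cells of a type and less RNA per cell cannot be told apart. Probe sequences were not compared among the strains, so these are differences in array signal.

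**Figure D1:**
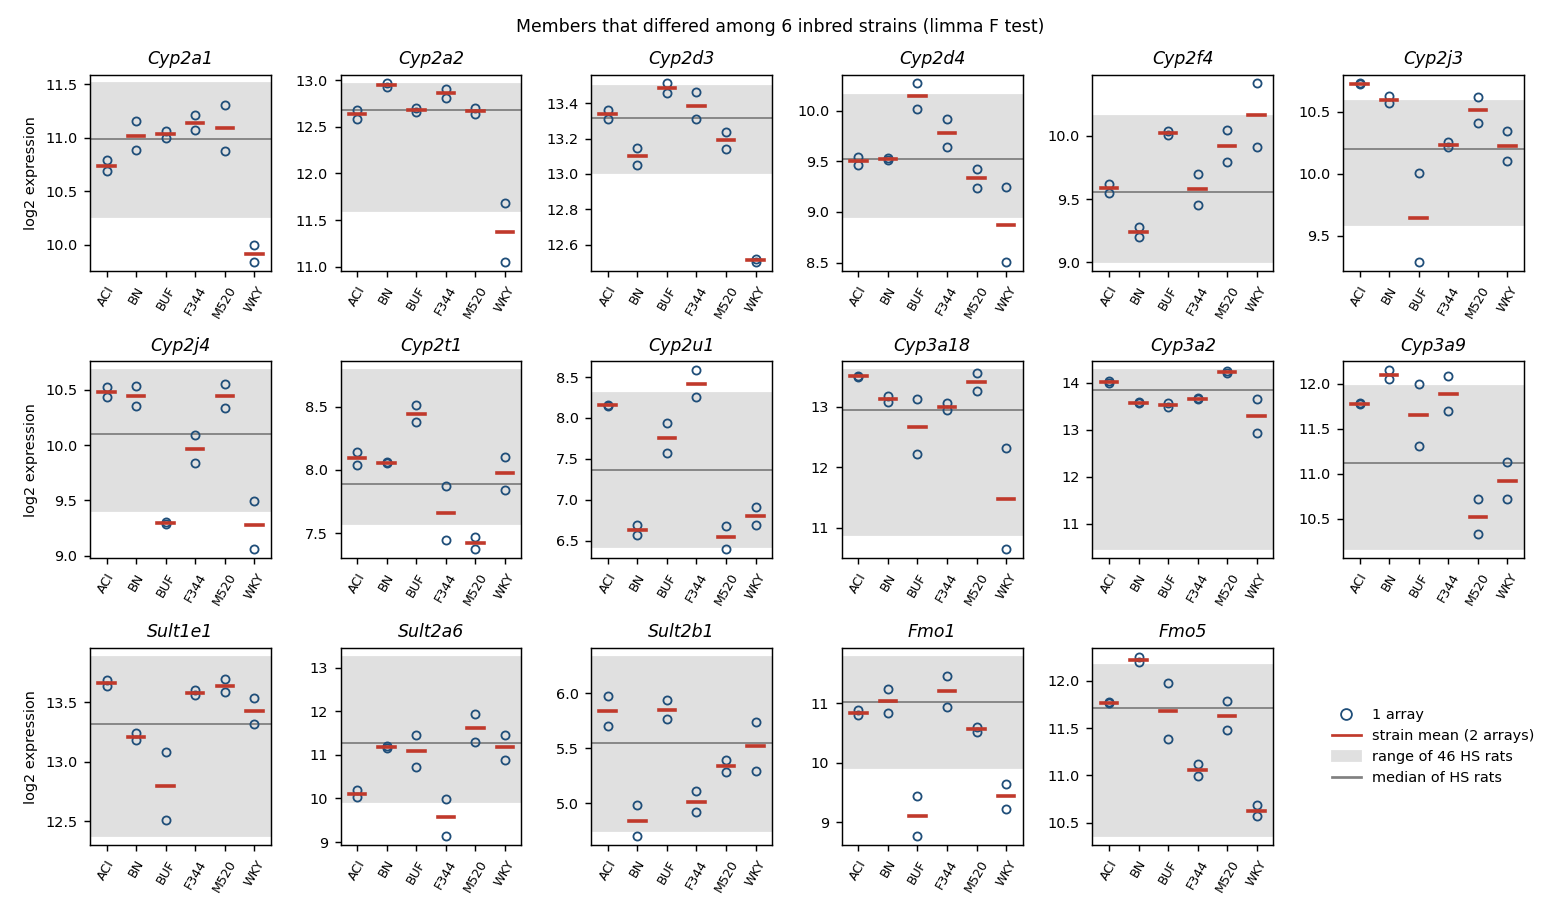
Log2 expression (vertical axis) by inbred strain (horizontal axis) for the 17 genes that passed the strain F test; circles are single arrays, red bars the mean of 2 arrays, and the grey band and line the range and median of 46 HS rats. Both WKY arrays lie below the HS range for Cyp2a1, Cyp2d3 and Fmo1, and both BUF arrays do for Cyp2j4 and Fmo1.

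Among the Cyp2 genes, the steroid hydroxylases Cyp2a1 and Cyp2a2 set WKY apart. Both lie on chromosome 1 of GRCr8, Cyp2a1 at 91359278 to 91372554 and Cyp2a2 at 91391492 to 91417158. Cyp2a2 read 12.59 and 12.68 in ACI, 12.92 and 12.96 in BN, 12.70 and 12.66 in BUF, 12.81 and 12.91 in F344, 12.63 and 12.70 in M520, and 11.05 and 11.69 in WKY. The WKY arrays were the lowest of the 12 and overlapped none, and WKY minus the mean of the other strains was -1.39 ± 0.14 (SE), 2.62-fold lower (adjusted p = 0.000129). Cyp2a1 read 10.69 and 10.79 in ACI, 10.88 and 11.16 in BN, a mean of 11.03 in BUF, 11.22 and 11.07 in F344, 10.88 and 11.30 in M520, and a mean of 9.92 in WKY, whose array 1 stood at 9.84. Here too WKY was the lowest strain with no overlap, at -1.09 ± 0.12 from the others, 2.12-fold lower (adjusted p = 0.000397). Cyp2a1 and Cyp2a2 thus were both low in WKY, although the first is known as female-predominant and the second as male-predominant.

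Cyp2u1, which hydroxylates long-chain fatty acids, had the smallest p of the set (F test, adjusted p = 5.11e-05). It read 8.14 and 8.16 in ACI, 8.25 and 8.58 in F344 and 7.57 and 7.94 in BUF. In the other 3 strains it read 6.69 and 6.57 in BN, 6.68 and 6.39 in M520, and 6.70 and 6.92 in WKY. The arrays fell into a high and a low range with a gap between BUF and WKY, and the strain means spanned 1.88. F344 was higher than the mean of the other strains by 1.24 ± 0.13 (adjusted p = 0.000442), and M520 was lower, at -1.01 ± 0.13 (adjusted p = 0.00152; 0.0511 without M520 array 2).

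The epoxygenases Cyp2j3 and Cyp2j4, which act on arachidonic acid, were lowest or nearly lowest in BUF at their probe set of highest mean. Cyp2j4 read 9.29 and 9.31 in BUF and 9.50 and 9.06 in WKY, against 9.84 and 10.09 in F344, 10.52 and 10.43 in ACI, 10.35 and 10.54 in BN, and 10.55 and 10.34 in M520. BUF and WKY overlapped each other and lay below the other 8 arrays. Cyp2j4 differed from the mean of the other strains by -0.82 ± 0.13 in BUF (adjusted p = 0.00451; 0.0776 without BUF array 2) and by -0.85 ± 0.13 in WKY (adjusted p = 0.00251). Cyp2j3 read 10.01 and 9.29 in BUF and between 10.10 and 10.73 in the other 10 arrays, and its BUF difference was -0.81 ± 0.15 (adjusted p = 0.0131). Its other probe set also passed the F test (adjusted p = 0.0118), but was called in ACI and WKY and not in BUF (-0.38, adjusted p = 0.0892). Without BUF array 2 the BUF difference at the first probe set was -0.45.

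Cyp2d3 and Cyp2d4, of the subfamily that hydroxylates debrisoquine, had their highest mean in BUF and their lowest in WKY. Cyp2d3 read 12.52 and 12.50 in WKY and between 13.05 and 13.51 in the other 10 arrays, with no overlap. The WKY difference was -0.79 ± 0.09, 1.73-fold lower (adjusted p = 0.000427). Cyp2d4 read 9.54 and 9.47 in ACI, 9.54 and 9.51 in BN, 10.01 and 10.27 in BUF, 9.64 and 9.92 in F344, 9.43 and 9.24 in M520, and 8.50 and 9.24 in WKY. BUF was above every other array, by 0.74 ± 0.16 from the mean of the other strains (adjusted p = 0.0255; 0.396 without BUF array 2 and 0.0525 without ACI array 2). The WKY difference was -0.78 ± 0.16 (adjusted p = 0.0170), a call that rested on WKY array 1 (adjusted p = 0.306 without it). At the other Cyp2d4 probe set the WKY difference was -0.46 (adjusted p = 0.185), and the BUF difference was 0.88 (adjusted p = 0.0155). Cyp2d2 read 13.40 to 13.83 on the 12 arrays and did not pass the F test (adjusted p = 0.381).

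Cyp2t1 and Cyp2f4, which lie close together on chromosome 1 of GRCr8, differed in other strains. Cyp2t1 read 8.14 and 8.04 in ACI, 8.05 and 8.06 in BN, 8.38 and 8.51 in BUF, 7.44 and 7.87 in F344, 7.37 and 7.47 in M520, and 8.10 and 7.84 in WKY. It was highest in BUF, by 0.60 ± 0.12 (adjusted p = 0.0168; 0.287 without BUF array 2), and low in M520, at -0.63 ± 0.12 (adjusted p = 0.0150; 0.183 and 0.112 without M520 array 1 and array 2), where M520 and F344 overlapped. Cyp2f4, known for metabolising naphthalene in lung, read 9.28 and 9.20 in BN, below each of the other 10 arrays (9.46 to 10.41), a difference of -0.61 ± 0.13 (adjusted p = 0.0196; 0.148 and 0.178 without BN array 1 and array 2). It was the 1 of 6 measured genes listed as acting mainly outside liver that passed the F test. Cyp2e1, which oxidises ethanol, spanned only 13.90 to 14.32 (adjusted p = 0.364).

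In the Cyp3 family, whose enzymes oxidise steroids and many drugs, Cyp3a9 and Cyp3a18 varied most. Cyp3a9 read 11.78 and 11.77 in ACI, 12.05 and 12.15 in BN, 11.99 and 11.32 in BUF, 11.70 and 12.08 in F344, 10.34 and 10.72 in M520, and 10.72 and 11.13 in WKY. Both M520 arrays were the lowest of the 12, M520 array 2 and WKY array 1 being equal to 2 decimals, and the M520 difference from the other strains was -1.14 ± 0.18, 2.21-fold lower (adjusted p = 0.00466), a call lost without M520 array 1 (adjusted p = 0.12). Cyp3a18 read 13.50 on both ACI arrays, 13.18 and 13.08 in BN, 13.12 and 12.22 in BUF, 13.05 and 12.95 in F344, 13.25 and 13.55 in M520, and 10.65 and 12.31 in WKY. WKY array 1 stood far below the rest while WKY array 2 overlapped BUF. The WKY difference was -1.66 ± 0.32 (adjusted p = 0.0121), and without WKY array 1 it was -0.83 (adjusted p = 0.179). Cyp3a2 read 14.19 and 14.23 in M520, above all other arrays, by 0.60 ± 0.15 (adjusted p = 0.0410), and 12.92 and 13.66 in WKY. That M520 call was lost in 9 of the fits that left out 1 array. Cyp3a23-3a1, the classic PXR-induced gene, read 13.25 to 13.96 and did not pass (adjusted p = 0.518).

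Of the sulfotransferases, Sult2a6, which sulfates hydroxysteroids and bile acids, varied most. It read 10.04 and 10.18 in ACI, 11.15 and 11.19 in BN, 11.45 and 10.73 in BUF, a mean of 9.57 in F344 with array 2 at 9.14, 11.28 and 11.93 in M520, and 10.89 and 11.45 in WKY. F344 and ACI held the 4 lowest arrays. The F344 difference was -1.46 ± 0.24, 2.76-fold lower (adjusted p = 0.0103; 0.221 without F344 array 2), and M520 was higher by 0.99 ± 0.24 (adjusted p = 0.0436; 0.0574 with the replicate number as a block). The M520 call was lost in 7 of the 12 fits without 1 array, down to 0.66 (adjusted p = 0.423) without M520 array 2. Sult2b1, which sulfates cholesterol and was dim, read 4.70 and 4.98 in BN and 5.97 and 5.70 in ACI. Its readings were 5.76 and 5.94 in BUF, 5.12 and 4.92 in F344, 5.29 and 5.40 in M520 and 5.74 and 5.29 in WKY, so BN and F344 overlapped at the low end. Its other probe set did not pass the F test (adjusted p = 0.429).

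Sult1e1, the oestrogen sulfotransferase, was the 1 Sult1 gene that differed. It read 13.08 and 12.51 in BUF and 13.18 to 13.69 in the other 10 arrays, and its BUF difference was -0.71 ± 0.13 (adjusted p = 0.0125; 0.279 without BUF array 2). The phenol sulfotransferase Sult1a1 read 12.23 to 13.12 and Sult1b1 12.43 to 13.30, and neither passed (adjusted p = 0.464 and 0.373). Sult1c2 had strain means 1.69 apart but missed the threshold (adjusted p = 0.0956), because arrays of a strain were far apart: the WKY arrays read 10.78 and 9.02.

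Fmo1, on chromosome 13 at 77715405 to 77747666, had the widest range of the set, 2.09. It read 10.80 and 10.88 in ACI, 10.83 and 11.24 in BN, 8.77 and 9.45 in BUF, 10.93 and 11.47 in F344, 10.52 and 10.61 in M520, and 9.22 and 9.65 in WKY. BUF and WKY overlapped each other and lay below the other 8 arrays. Its difference from the other strains was -1.51 ± 0.19 in BUF, 2.84-fold lower (adjusted p = 0.00122), and -1.11 ± 0.19 in WKY (adjusted p = 0.00592; 0.142 without WKY array 1). Fmo5, which lies apart from the other Fmo genes on chromosome 2 at 187885741 to 187938468, read 11.77 and 11.76 in ACI, 12.20 and 12.25 in BN, 11.97 and 11.38 in BUF, 10.99 and 11.12 in F344, 11.48 and 11.79 in M520, and 10.69 and 10.57 in WKY. BN was highest, by 0.87 ± 0.14 (adjusted p = 0.00383; 0.0576 and 0.0609 without BN array 1 and array 2), and WKY lowest, at -1.04 ± 0.14 (adjusted p = 0.00124), and neither overlapped another strain. Fmo4 passed only for WKY, at -0.58 ± 0.14 (adjusted p = 0.0389), which 8 of the fits without 1 array did not keep, and its other probe set gave -0.35 (adjusted p = 0.258).

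Set against the mean of the other 5 strains, WKY had 0 genes of the set higher and 10 lower by limma, where 3.53% of all genes were higher and 2.26% lower. At an unadjusted p under 0.05 the counts were 3 higher and 13 lower, a threshold at which the share of all genes was not computed. The 10 were Cyp2a1, Cyp2a2, Cyp2d3, Cyp2d4, Cyp2j4, Cyp2u1, Cyp3a18, Fmo1, Fmo4 and Fmo5. The median WKY difference was -0.15 over the set and 0.01 over all genes. In BUF 4 genes were higher (all genes 3%) and 4 lower (3.86%), in BN 4 higher (3.36%) and 3 lower (2.39%), and in M520 3 higher (1.34%) and 3 lower (4.22%). ACI had 2 higher (1.46%) and 0 lower (0.985%), and F344 2 higher (0.795%) and 1 lower (0.935%). At an unadjusted p under 0.05 by limma, ACI had 11 higher and 2 lower, again without a computed share of all genes. These 6 comparisons share arrays. Of their 36 calls, 8 were kept in all 12 fits that left out 1 array: Cyp2a1, Cyp2a2, Cyp2d3, Cyp2j4 and Fmo5 in WKY, Fmo1 in BUF, and Cyp2u1 in BN and F344. In a fit of all 58 arrays the Cyp2u1 calls in BN and F344 were lost (adjusted p = 0.15 and 0.0782). The rest of these 8 calls were kept. Without WKY array 1 the WKY differences of Cyp2d4, Cyp2u1, Cyp3a18, Fmo1 and Fmo4 shrank to -0.41, -0.58, -0.83, -0.90 and -0.35. Cyp2f4 was higher in WKY by 0.50 ± 0.13 and just missed the threshold (adjusted p = 0.0537). It passed in fits on 1 probe set per gene or centred on array medians. Without BUF array 2 the BUF differences of Cyp2d3, Cyp2d4, Cyp2j3, Cyp2j4, Cyp2t1, Sult1e1 and Sult2b1 were 0.35, 0.61, -0.45, -0.83, 0.54, -0.42 and 0.45.

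**Figure D2:**
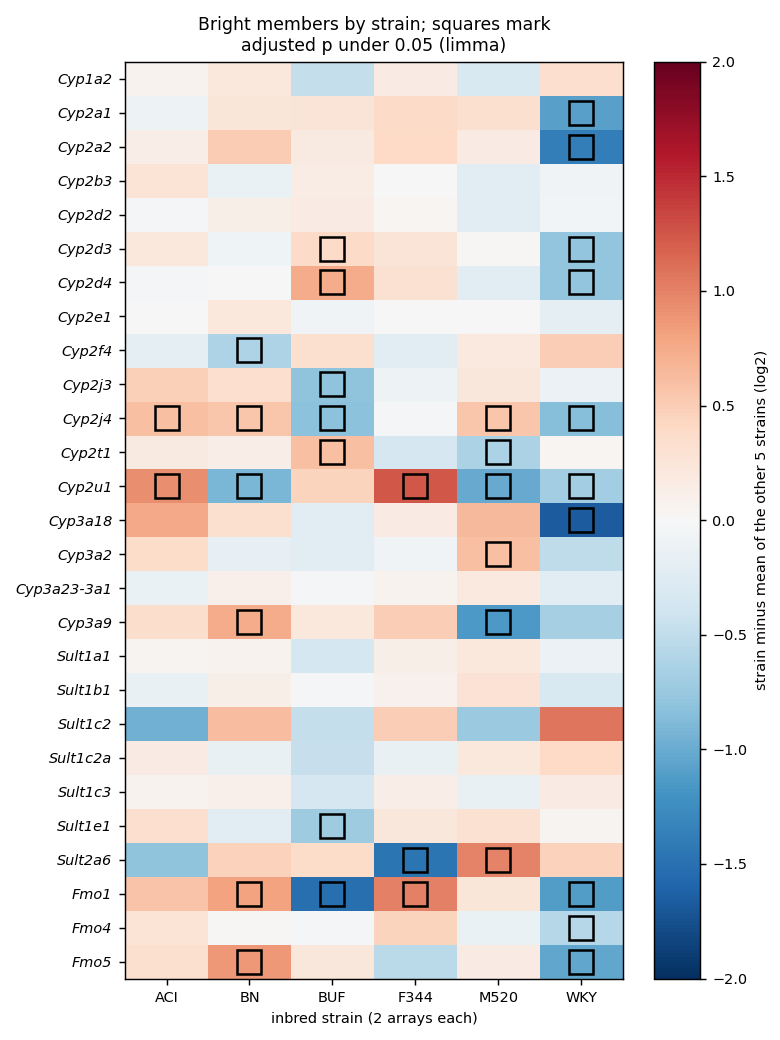
Difference of each inbred strain from the mean of the other 5 (colour, log2 units; horizontal axis, strain with 2 arrays) for the 27 genes above the median level (vertical axis); squares mark adjusted p under 0.05. All 10 squares of WKY are blue, that is lower, while BUF, BN and M520 have both colours.

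Among genes that regulate or serve these enzymes, 8 of 20 measured differed between strains, where 13.8% of all genes did. The 8 were Ahr, Nr1i3, Ppara, Cyb5b, Cyb5r3, Papss1, Papss2 and Alas1. In WKY 4 of the 20 were lower (all genes 2.26%) and 1 higher (3.53%). Nr1i3, which encodes the receptor CAR, had a WKY mean of 7.55, a difference of -1.55 from the other strains (adjusted p = 0.000197), with means of 8.55 to 9.49 in the other strains. Papss2, which makes the sulfate donor PAPS, was lower in WKY at -1.01 (adjusted p = 0.000206). So were Alas1, the first enzyme of haem synthesis, at -1.19 (adjusted p = 0.0113), and the electron donor Cyb5b at -0.96 (adjusted p = 0.00676). Ppara was higher in WKY by 0.65 (adjusted p = 0.0391) and lower in BUF (-0.85, adjusted p = 0.0125). In F344, Nr1i3 and Cyb5b were higher, by 0.78 and 1.09 (adjusted p = 0.0343 and 0.00653). In BN, Papss2, Alas1 and the P450 reductase gene Por were higher, Por by 1.50 (adjusted p = 0.0232). Por did not pass the F test (adjusted p = 0.0821). Ahr was lower in BUF at -1.20 (adjusted p = 0.0133), and the PXR gene Nr1i2 did not pass (adjusted p = 0.21). None of the AhR-inducible genes Cyp1a1, Cyp1a2 and Cyp1b1 passed the F test (0 of 3; adjusted p = 0.288, 0.0929 and 0.391; 1 of 3 had an unadjusted p under 0.05). Of 4 measured AhR targets outside the set, Nqo1 passed, with strain means from 7.20 in M520 to 10.33 in ACI, and Tiparp, Aldh3a1 and Ahrr did not (adjusted p = 0.611, 0.344 and 0.948).

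The sex-patterned genes were a mixed group. All 4 genes listed as male-predominant passed the F test, and of the 4 listed as female-predominant, Cyp2a1 and Cyp3a9 passed and the dim Sult2a1 and Sult2a2 did not, where 13.8% of all genes passed. Sult2a6, which passed, was on neither list. Of the male-predominant genes, Cyp2a2 alone passed in all 12 fits without 1 array. WKY was lower for Cyp2a2 and Cyp3a18 of the first list and for Cyp2a1 of the second. The female-predominant reference Cyp2c12 had strain means of 10.27 in M520, 9.03 in WKY and 7.10 to 8.19 in the other strains (F test, adjusted p = 0.000159), and Cyp2c11 did not pass. Of 8 growth hormone axis genes 0 passed the F test by limma, and 4 had an unadjusted p under 0.05. The share of all genes at that unadjusted threshold was not computed. By single strain, Socs2 (2.28, adjusted p = 0.0366) and Ghr (0.49, adjusted p = 0.0363) were higher in WKY, Stat5b was lower in M520 (-0.55, adjusted p = 0.0337) and Igf1 was lower in BN (-0.37, adjusted p = 0.0474).

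Markers of other liver cells moved with strain as well. Of the measured markers, 4 of 8 for Kupffer cells and macrophages, 4 of 7 for endothelium, 3 of 7 for stellate cells and fibroblasts and 1 of 4 for bile duct passed the F test. So did 3 of 5 markers of pericentral hepatocytes, the zone where many P450 genes are known to be highest, and 2 of 5 of periportal hepatocytes. Of all genes, 13.8% passed. Slc1a2 and Oat, both pericentral, were higher in BN, by 1.46 and 1.37 (adjusted p = 8.93e-05 and 0.00251). Slc1a2 was lower in BUF (-0.86, adjusted p = 0.00555) and Oat in WKY (-0.85, adjusted p = 0.0376). Glul, also pericentral, was lower in ACI (-0.60, adjusted p = 0.0318). The rest of the pericentral list did not pass in WKY: Glul, Lect2 and Rgn stood at 0.38, 0.44 and 0.12, and Slc1a2 at -0.08. That list had a mean level of 10.47 and 10.72 in WKY, 10.15 and 10.39 in BUF, 11.11 and 11.19 in BN, and 10.38 to 10.69 in the other strains. Of periportal markers, Sds was higher in BN (1.84, adjusted p = 0.0357) and Gls2 was lower in WKY (-0.78, adjusted p = 0.00946). Hal was lower in M520 (-0.52, adjusted p = 0.0292), and Ass1 and Pck1 passed in no strain. The periportal list stood at 12.02 and 12.48 in BN and 11.47 and 11.74 in WKY. On the other arrays it stood between 11.42 and 11.92. In WKY the collagen genes Col1a2 and Col3a1 and the Kupffer marker Clec4f were higher, by 1.15, 1.13 and 0.97. The mean level of the stellate list was 7.59 and 8.31 on the WKY arrays, 6.94 and 7.12 in BUF, and 7.26 to 7.79 in the other strains. The Kupffer list stood at 8.94 and 9.22 in WKY, 8.16 and 8.49 in BUF, and 8.19 to 9.59 in the rest. In BN 4 endothelial markers were higher (all genes 3.36%), and in BUF 3 were lower (3.86%). Of 7 hepatocyte markers 1 passed the F test, Apoa1, and the hepatocyte list stood at 13.77 on both WKY arrays and between 13.53 and 13.77 on the other 10. The part of these markers in the strain differences was not tested.

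The strain means were then set against the range of the HS rats. For 22 of the 40 genes, 55%, all 6 strain means fell within the range of the 46 HS arrays, against 73.2% of all genes. Both arrays of a strain fell below the HS range for Cyp2a1, Cyp2d3 and Fmo1 in WKY, Cyp2j4 and Fmo1 in BUF, Cyp2t1 in M520 and the dim Cyp2j10 in BN. They fell above it for Cyp3a9 and Fmo5 in BN and Cyp2j3 in ACI. Of all genes, 0.999% were below the range in this way for WKY, 1.32% for BUF, 3.27% for M520 and 1.21% for BN, and 1.84% were above it for BN and 0.717% for ACI.

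Among the HS rats the spread differed widely from gene to gene. For the 27 genes above the median level the median SD over 46 rats was 0.27, against 0.18 for all genes above that level. The largest SDs among them were 0.75 for Sult2a6, 0.64 for Sult1c2, 0.60 for Cyp3a18, 0.53 for Cyp3a2 and 0.49 for Fmo1. Cyp3a2 owed its place to 1 rat, glucose-intolerant rat 42, and its SD over the other 45 was 0.19, while that of Sult2a6 was 0.69. Cyp2d2 and Cyp2e1 were steady, with SDs of 0.05 and 0.10. Over these 27 genes the range of strain means and the SD among HS rats had a Spearman correlation of 0.68, a description across genes that share the same arrays. Among the dim genes Cyp1a1 had an SD of 0.84 and ran from 3.99 to 7.39.

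Between the glucose-intolerant and the glucose-normal rats, 0 of the 40 genes differed (limma, adjusted p under 0.05), where 0% of all genes did. The smallest adjusted p in the set was 0.481. An unadjusted p under 0.05 was found for 6 of the 40, where 8.6% of all genes had one. The median difference, intolerant minus normal, was -0.02 over the set and -0.01 over all genes, and 12 of 40 were higher in the intolerant group. The 95% interval lay within 0.5 log2 units of 0 for 35 genes and within 0.25 for 24.

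The 6 genes of smallest p were small differences inside overlapping ranges. Cyp2j4 read 9.43, 9.98 and 10.47 (lowest, median, highest) in intolerant rats and 9.40, 10.28 and 10.68 in normal rats. Its difference was -0.23 ± 0.08 (unadjusted p = 0.00691). Cyp2e1 read 13.89, 14.11 and 14.28 in intolerant and 13.94, 14.20 and 14.27 in normal rats, a difference of -0.08 ± 0.03 (unadjusted p = 0.00989). For Sult2b1, the dim cholesterol sulfotransferase, the readings were 4.75, 5.60 and 6.33 against 5.03, 5.46 and 5.72, a difference of 0.19 ± 0.07 (unadjusted p = 0.0108), and its other probe set gave -0.01. Sult1b1 read 12.66, 12.89 and 13.29 against 12.43, 12.77 and 13.16, a difference of 0.13 ± 0.05 (unadjusted p = 0.0121). Sult1c2a and the dim Cyp2s1 were at -0.19 ± 0.09 and -0.12 ± 0.06 (unadjusted p = 0.0329 and 0.0459). The groups overlapped over most of their range in each of these genes.

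The other genes named by rule, the probe set of highest mean in each family, gave no call either. Cyp1a2 averaged 12.23 ± 0.28 (SD, n = 23) in intolerant and 12.26 ± 0.21 in normal rats. Sult1e1 averaged 13.33 ± 0.33 and 13.22 ± 0.34, and Fmo5 11.62 ± 0.47 and 11.63 ± 0.34. Sult2a6 averaged 11.33 ± 0.88 and 11.09 ± 0.58, a difference of 0.24 ± 0.21 (SE). Cyp3a2 averaged 13.60 ± 0.70 and 13.87 ± 0.19, a difference of -0.27 ± 0.15 (unadjusted p = 0.0702). The wide SD in the intolerant group came with 1 rat at 10.46, and without it the Cyp3a2 difference was -0.13 ± 0.05 (unadjusted p = 0.0195). The adjusted p was 0.646 with that rat and 0.637 without it. No regulator or partner gene passed between the glucose groups (0 of 20 by limma, 0 of 20 at an unadjusted p under 0.05).

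**Figure D3:**
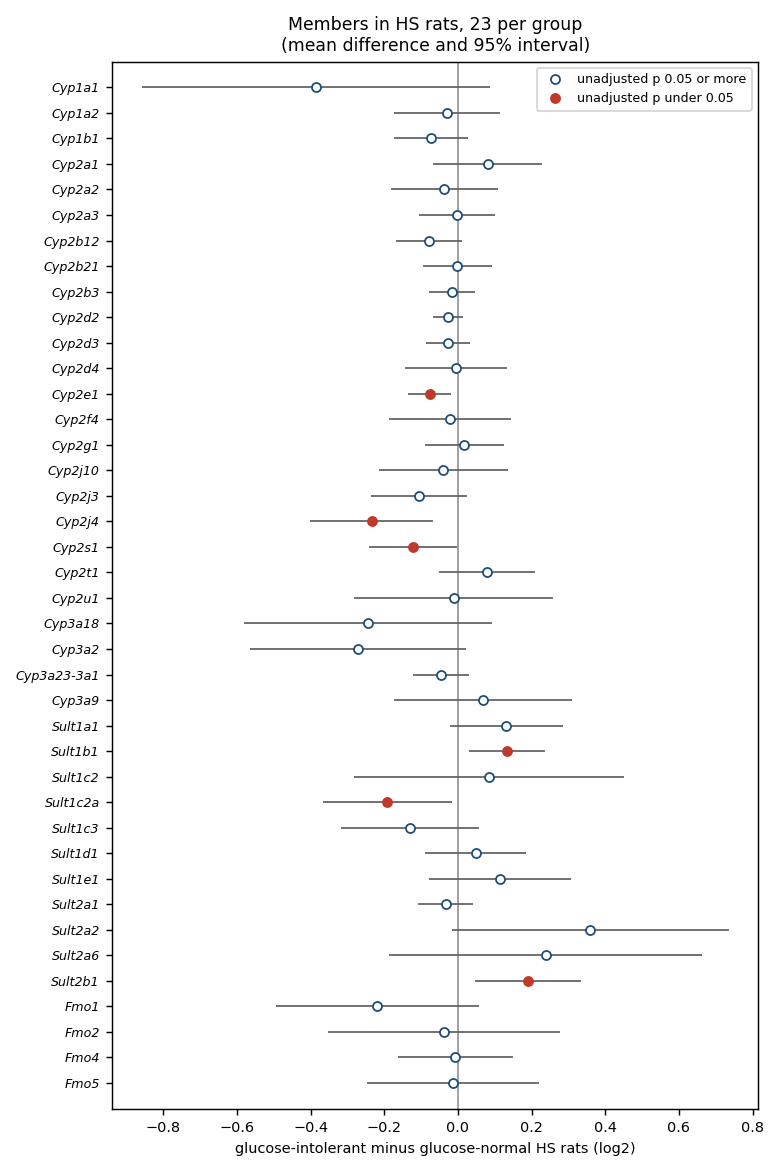
Mean difference of glucose-intolerant minus glucose-normal HS rats (horizontal axis, log2 units, 23 rats per group) with its 95% interval for each of the 40 genes (vertical axis); red points have an unadjusted p under 0.05. The 6 red points lie between -0.23 and 0.19, and 0 of 40 passed after adjustment.

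That rat, glucose-intolerant rat 42, was singled out after its values were seen, and its values are descriptions. Cyp3a2 read 10.46 in it and 13.42 to 14.26 in the other 45 HS rats, 10.4-fold under their median of 13.85. Sult1c3 read 11.05, below the 12.09 to 13.06 of the others. The hydroxysteroid sulfotransferases Sult2a2 and Sult2a6 went the other way. Sult2a2 read 7.75 where the others reached at most 5.51, and Sult2a6 read 13.24 where they reached at most 12.27. The dim Sult2a1 read 2.76, inside the 2.33 to 2.89 of the others. Cyp2j3 was also lowest in rat 42, at 9.59, with another rat at 9.60.

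Other sex-patterned genes in rat 42 were as follows. Cyp2c12, female-predominant, read 12.84, above the 7.16 to 11.06 of the other rats, and Cyp2c11, male-predominant, read 12.73, below their 13.06 to 13.76. Cux2, a repressor known to be higher in female liver, read 8.13, the highest, with the next at 8.01. Cyp2a2 at 12.43, Cyp2a1 at 11.46, Cyp3a9 at 11.37 and Sult1e1 at 13.10 stayed inside the range of the others. So did Bcl6 of the growth hormone axis list, at 6.09 within 5.75 to 10.83. The female transcript Xist read 2.98, within the 2.76 to 3.25 of the other rats, and the Y-linked Eif2s3y 9.12, within 8.59 to 9.37. Rat 42 was lowest or highest of the 46 in 5 genes of the set, as were glucose-intolerant rats 24 and 41, and in 878 of all genes, 6.18%. The median rat was so in 510 genes, and 6 rats were so in more than rat 42.

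**Figure D4:**
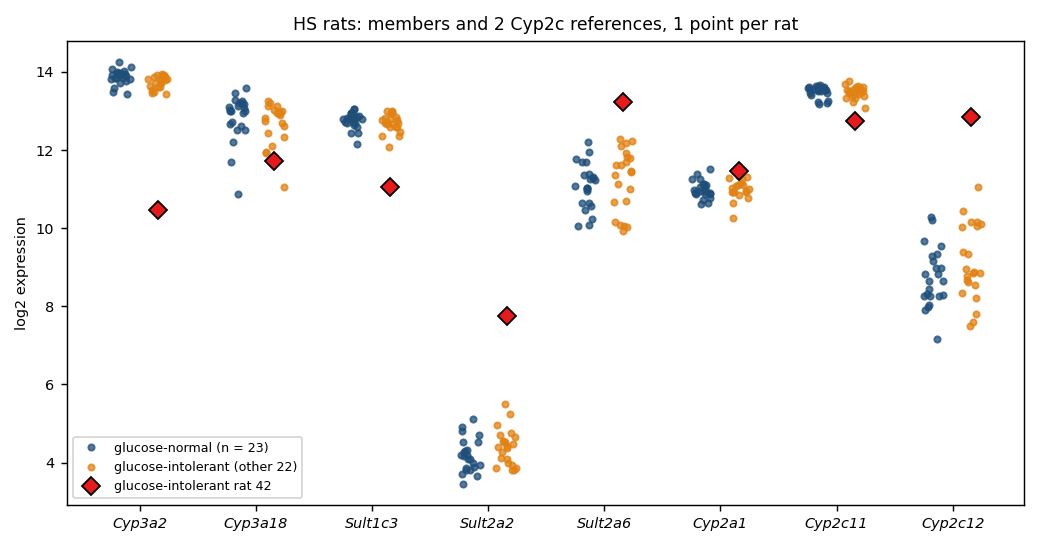
Log2 expression (vertical axis) of 6 genes of the set and the references Cyp2c11 and Cyp2c12 (horizontal axis) in 46 HS rats, 1 point per rat; blue is glucose-normal (n = 23), orange the other 22 glucose-intolerant rats, and the red diamond glucose-intolerant rat 42. The diamond is outside all other points for Cyp3a2, Sult1c3, Sult2a2, Sult2a6, Cyp2c11 and Cyp2c12, and inside them for Cyp3a18 and Cyp2a1.

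Across the 46 HS rats, 35 pairs were compared, with genes of the set taken only where their HS mean was above the median gene. They were pairs within a P450 subfamily such as Cyp2d, within Sult1 or within Fmo, and pairs of a receptor with its target genes. Other pairs of genes, such as P450 genes of different subfamilies, were not computed. The share of them that would pass over the same rats is thus not known. After adjustment over the 35 pairs, 8 passed by Pearson's r and 15 by Spearman's rho in permutation tests (two-sided, 100000 resamples, smallest possible p of 1e-05). The 8 passed by both, 6 with a positive and 2 with a negative sign, and none of them held a receptor. Each had the same sign in both glucose groups, and 6 of the 8 still passed without the 2 rats farthest from the median of the first gene.

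The Sult1 family held 5 of these pairs. Sult1a1 rose with Sult1e1 (r = 0.57, rho = 0.57, permutation p = 1e-05 and 0.00011, adjusted p = 0.00035 and 0.00166) and with Sult1b1 (r = 0.57, rho = 0.59, permutation p = 3e-05 and 2e-05, adjusted p = 0.000525 and 0.0007). Sult1c3 ran opposite to Sult1a1 (r = -0.49, rho = -0.51, permutation p = 0.00057 and 0.00032, adjusted p = 0.00656 and 0.00224). Without rat 42 that r was -0.68. It also ran opposite to Sult1b1 (r = -0.40, rho = -0.53, permutation p = 0.00637 and 0.00017, adjusted p = 0.0318 and 0.00166). Sult1b1 and Sult1e1 gave r = 0.37 and rho = 0.45 (permutation p = 0.011 and 0.00169, adjusted p = 0.048 and 0.00986). Leaving out the 2 farthest rats changed r to 0.53, 0.62, -0.40, -0.38 and 0.31 in that order, and the last no longer passed. Within glucose-intolerant rats the 5 values of r were 0.52, 0.40, -0.40, -0.36 and 0.38, and within glucose-normal rats 0.58, 0.63, -0.66, -0.47 and 0.31.

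**Figure D5:**
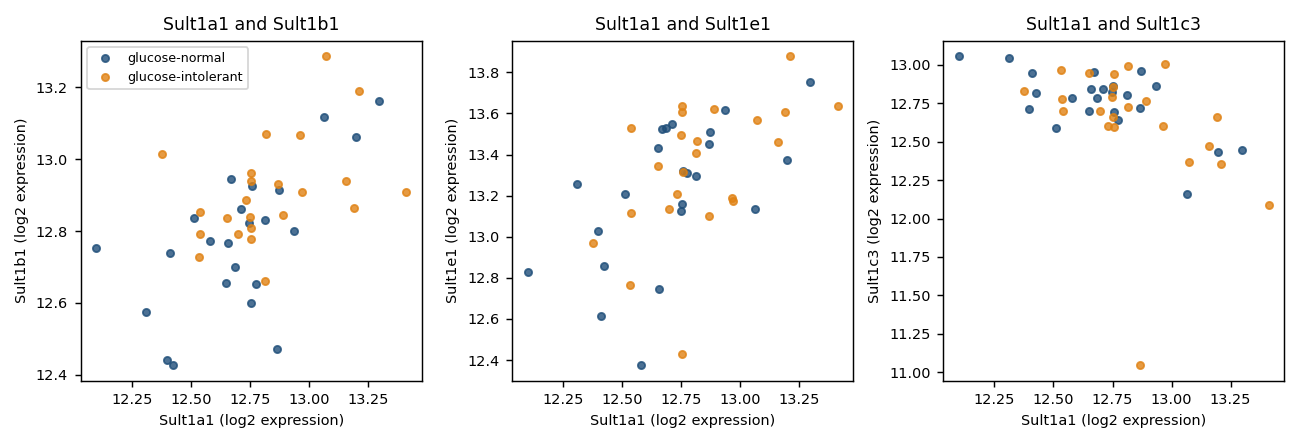
Sult1b1, Sult1e1 and Sult1c3 (vertical axes, log2 expression) against Sult1a1 (horizontal axes, log2 expression) in 46 HS rats, 1 point per rat, blue for glucose-normal and orange for glucose-intolerant. Sult1b1 and Sult1e1 rise with Sult1a1 (r = 0.57 in both), Sult1c3 falls (r = -0.49), and the lowest Sult1c3 point, at 11.05, is rat 42.

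The other passing pairs lay within single gene clusters. Fmo1 and Fmo4 gave r = 0.48 and rho = 0.53 (permutation p = 0.00075 and 0.00019, adjusted p = 0.00656 and 0.00166), Cyp2j3 and Cyp2j4 r = 0.45 and rho = 0.44 (permutation p = 0.00195 and 0.0026, adjusted p = 0.0136 and 0.013). Cyp2d2 and Cyp2d4 gave r = 0.43 and rho = 0.40 (permutation p = 0.00314 and 0.00596, adjusted p = 0.0183 and 0.0232). Without the 2 farthest rats these r were 0.42, 0.42 and 0.35, and the last no longer passed. They were 0.59, 0.34 and 0.52 within intolerant rats and 0.42, 0.46 and 0.30 within normal rats. Neighbours on a chromosome did not all pair: Cyp2a1 with Cyp2a2 gave r = 0.21 and Cyp3a18 with Cyp3a2 r = 0.26, or 0.07 without rat 42. No receptor passed by r with its target genes. The r was 0.28 for Nr1i3 and Cyp2b3, 0.24 for Ahr and Cyp1a2, and -0.25 for Nr1i2 and Cyp3a23-3a1, whose rho of -0.35 did pass (permutation p = 0.0182, adjusted p = 0.0438).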

How the data were processed

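The authors deposited a table of log2 expression values for 58 arrays and 31042 probe sets, used as deposited. The submitters' processing notes name Partek; how background, summarisation and normalisation were handled is not stated in them or in the labels. Groups came from the titles and the design text, since 1 description of the intolerant rats joins normal with intolerance. The platform annotation gave 20826 probe sets 1 symbol, 436 several and 9780 none; 39 of the 40 genes matched GRCr8 by gene identifier. The gene set and lists were chosen with earlier results of these data known.

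Models were fitted in R 4.3.3 with limma 3.58.1 (lmFit, eBayes) on all probe sets without a filter, and checked on simulated data. HS groups (44 residual degrees of freedom) and inbred arrays (6) were fitted apart, and p-values were adjusted by Benjamini-Hochberg over 31042 probe sets, with a threshold of 0.05. Strain differences are given with their standard error. Every gene of the set could be named; array values are given for genes called by the F test with a range of at least 1, and for others that a call rests on. Glucose groups are given for the 6 smallest p and the highest gene of each family. Arrays have no read depth, and their number limits precision. Proteins were not analysed here. Alternatives changed scaling, filter, weights, arrays in the fit, probe set and single arrays. The replicate numbers of different strains were not treated as a pairing in the main fits.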

Additional observations from a re-analysis of the deposited data

How the results depend on the processing

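For the F test, the count of 17 genes stayed between 12 and 20 when an array was left out. Array weights changed the counts for single strains to 8 in ACI and 4 in BUF. Fitting all 58 arrays gave 0 in ACI, 1 in BN, 6 in BUF, 0 in F344, 3 in M520 and 7 in WKY. The F test then called 14 genes, with Cyp2f4, Cyp3a18, Cyp3a2, Sult1e1 and Sult2a6 lost and Cyp2b3 and Cyp2d2 gained. The cause of these changes was not tested. Leaving out 1 array gave 0 to 5 genes in ACI, 1 to 8 in BN, 1 to 10 in BUF, 1 to 4 in F344, 1 to 7 in M520 and 7 to 12 in WKY. Counts for single strains hold calls in both directions. The glucose count was 0 under every alternative run, also without rat 42. Over all probe sets, quantile normalisation gave 1 call, array weights 12 and a residual component as covariate 185. The count of pairs was 10 without rat 42, a setting chosen after the data were seen, 0 within the 23 glucose-intolerant rats and 4 within the 23 glucose-normal rats, where fewer rats enter. The BUF difference of Sult2b1 reversed to -0.0064 at its other probe set (adjusted p = 0.985).

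With the replicate number as a block, the F test gave 17 genes (Cyp3a18 lost, Fmo4 gained), ACI 3, BN 7, BUF 8, F344 3, M520 5 and WKY 10. Deviations of arrays with the same number correlated from -0.15 to 0.42 over 15 pairs of strains, with 3 above 0.1 and a median of -0.06. That check cannot tell whether some of these arrays shared a batch, which the labels do not name. Of 521 values for single genes under settings other than leaving out an array, 480 kept direction and side of the threshold, 40 lost the call and 1 reversed. Of 647 with an array left out, 521 kept both and 126 lost the call.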
